A study of Homo sapiens with 6 samples.

Results

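The levels of 50 genes of DNA replication and of the step from G1 into S phase, out of 17646 genes listed, were compared in RNA sequencing libraries of a breast cancer line depleted of USP32, a ubiquitin-specific protease. The genes were chosen by name, for their role in the replicative helicase, the polymerases, nucleotide synthesis, chromatin assembly and the E2F programme, and all 50 were listed. Each was above 0 in all 6 libraries, with 1.77 FPKM as the lowest single value, so all 50 passed the filter on low values and were among the 12003 genes tested. The siUSP32 group (3 libraries) was transfected with an siRNA against USP32, and the siControl group (3 libraries) with a control siRNA. Both groups are labelled as MDA-MB-231, an established human line of triple negative breast cancer, and the design gives 48 h of transfection for both. An siRNA lowers its target without removing it, and the labels give neither the sequence nor the number of siRNAs. Nothing in the labels places the replicates of a group in separate cultures, so the p-values reflect how far replicate libraries differ, which may be technical only.

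FPKM is a fragment count divided by transcript length and by the total of the library, so it is a level per length. USP32, the gene targeted, had 2.0, 1.88 and 2.01 FPKM in siUSP32 libraries, against 7.5, 7.48 and 8.32 FPKM in siControl libraries (log2 difference -1.56 ± 0.07, SE, limma adjusted p = 8.57e-08). FPKM summed to between 855573 and 948641 in siUSP32 libraries and to between 686376 and 694831 in siControl libraries, so the scale of the libraries differed between the groups. Read depth is unknown. Of the markers that this line is known to express, VIM, CD44, MSN, AXL and CAV1, none was under 1.2 FPKM in every library, and their sum was 2150 to 2190 FPKM in siUSP32 and 1950 to 1980 FPKM in siControl libraries. VIM carried most of that sum (1660 ± 49.5 FPKM in siUSP32 and 1090 ± 11.0 FPKM in siControl libraries), while CD44 (135 ± 3.83 FPKM in siUSP32 and 425 ± 1.89 FPKM in siControl libraries, log2 difference -1.65) and AXL (16.7 ± 0.481 FPKM in siUSP32 and 64.5 ± 0.802 FPKM in siControl libraries, -1.89) were lower. Of the markers known to be low or absent in this line, ERBB2 was at 3.6 ± 0.0551 FPKM in siUSP32 and 12.0 ± 0.272 FPKM in siControl libraries. EPCAM was between 3.89 and 4.85 FPKM in siUSP32 and between 9.61 and 12.09 FPKM in siControl libraries. CDH1 was between 0.0 and 0.04 FPKM in siUSP32 and between 0.44 and 0.5 FPKM in siControl libraries. The sum of these markers was 7.7 to 8.7 FPKM in siUSP32 and 22.6 to 25.2 FPKM in siControl libraries, and the part of these line markers in the results was not tested. ESR1 was between 0.09 and 0.33 FPKM in siUSP32 and between 0.4 and 0.63 FPKM in siControl libraries. PGR had no value among the genes listed, so that sum covers 4 of the 5 markers. Of 4 blood cell markers 3 were under 1.2 FPKM in every library, as were 3 of 3 endothelial and 2 of 3 fibroblast markers, the exceptions being CD14 and LUM. The fibroblast sum was 7.8 to 8.75 FPKM in siUSP32 and 31.9 to 33.3 FPKM in siControl libraries, nearly all of it LUM, and its part in the results was not tested. MDA-MB-231 is generally described as having lost CDKN2A by deletion, whereas CDKN2A had 282.09, 335.9 and 256.83 FPKM in siUSP32 and 99.25, 103.86 and 103.54 FPKM in siControl libraries. That level goes against the label, the identity of the line was not tested further, and values below are those of the libraries labelled MDA-MB-231.

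Cells enter S phase when cyclin D with CDK4 or CDK6, and then cyclin E with CDK2, phosphorylate the retinoblastoma protein RB1, which frees E2F transcription factors to switch on replication genes. CDC6 and CDT1 load the ring of MCM proteins on origins in G1, and CDC45 and the GINS complex turn that ring into the working helicase. Polymerase alpha with primase starts each strand, the clamp PCNA is put on DNA by replication factor C, and polymerases delta and epsilon copy the bulk of the genome.

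E2F factors bind DNA at sites with a run of T followed by G and C letters, and promoters are shown first because the set was drawn up in part as genes under E2F control. RefSeq promoters on GRCh38.p14, from 250 bases before to 50 bases after the gene start, were found for 43 of the 50 genes, with 54 windows, and not for CCND1, CCNE2, CDK2, E2F8, GINS4, MCM4 and MCM5. The start meant here is that of the promoter entry, which can lie inside the gene as listed. The window of RB1, which is counted among the lower genes, lay inside the gene (48476200 to 48476449, with the gene beginning at 48303726). So did, among others, windows of HELLS (from 94545538, gene from 94501434), GINS3 (from 58392221, gene from 58295080) and UHRF1 (from 4909251, gene from 4903080). The letters searched on both strands were TTTCCCGC, TTTGGCGC, TTTCGCGC and TTTGCCGC. They were present in 24 of the 43 genes (55.8%), against 3.31% of 35116 promoter windows and 6.69% of 9860 tested genes with a promoter. A match to these letters is a description and does not show that a factor binds there. The 250 bases before a start of E2F1, MCM7 and UHRF1 are shown as examples of a gene that carries these letters and was higher (E2F1 and MCM7) or lower (UHRF1) in siUSP32 libraries. They are written 5′ to 3′ along the gene, with the E2F letters and the CCAAT letters (read on either strand) in capitals.
E2F1 (chr20:33686386-33686635, minus strand): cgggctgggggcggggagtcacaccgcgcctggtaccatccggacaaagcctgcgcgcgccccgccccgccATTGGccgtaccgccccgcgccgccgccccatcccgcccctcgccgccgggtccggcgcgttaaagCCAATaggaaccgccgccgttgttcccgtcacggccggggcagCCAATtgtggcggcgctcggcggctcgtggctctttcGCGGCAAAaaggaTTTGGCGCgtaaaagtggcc
MCM7 (chr7:100101398-100101647, minus strand): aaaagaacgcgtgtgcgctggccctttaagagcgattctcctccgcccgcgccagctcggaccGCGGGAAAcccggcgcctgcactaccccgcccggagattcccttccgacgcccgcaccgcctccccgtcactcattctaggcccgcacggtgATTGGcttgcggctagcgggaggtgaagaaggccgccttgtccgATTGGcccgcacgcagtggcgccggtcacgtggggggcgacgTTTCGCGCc
UHRF1 (chr19:4909251-4909500, plus strand): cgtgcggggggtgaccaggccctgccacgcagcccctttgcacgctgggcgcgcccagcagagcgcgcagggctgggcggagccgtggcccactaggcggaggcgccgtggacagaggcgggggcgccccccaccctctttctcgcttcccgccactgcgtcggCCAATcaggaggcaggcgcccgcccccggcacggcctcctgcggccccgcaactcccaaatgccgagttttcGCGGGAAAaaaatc

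The E2F1 window holds a pair of E2F matches close to each other, and they begin 33 and 20 bases before the start. In MCM7 they begin 187 and 9 bases before it, and the windows at other MCM7 starts held no E2F letters. In UHRF1 the match shown begins 14 bases before the start. The sites of 15 further members are given with 6 bases on each side, E2F letters in capitals, first for genes that were higher in siUSP32 libraries (MCM2 to UNG), then for genes that were lower (CLSPN to GINS1), and then for MCM6, which did not pass the test.
MCM2 (chr3:127598407-127598426, plus strand): accactTTTCGCGCgaaacc
MCM3 (chr6:52284733-52284752, minus strand): ggaagtTTTCGCGCcggggt
CDC6 (chr17:40287880-40287899, plus strand): ttcggaTTTGGCGCgagcgc
CDT1 (chr16:88803748-88803767, plus strand): gcgcccGCGGGAAAtttggc
GINS2 (chr16:85688972-85688991, minus strand): gccgtgGCGGGAAAacggcg
PCNA (chr20:5126668-5126687, minus strand): tcagggGCGGGAAAaggcgt
TYMS (chr18:657608-657627, plus strand): acggccGCGGGAAAaggcgc
UNG (chr12:109098103-109098122, plus strand): aggtttTTTGCCGCgaaaag
CLSPN (chr1:35769970-35769989, minus strand): ggctggGCGGGAAAgcaaga
POLE (chr12:132687347-132687366, minus strand): gggagcGCGCCAAAtttctc
POLA1 (chrX:24693775-24693794, plus strand): cacaggGCGCCAAAcgcgcg
HELLS (chr10:94545774-94545793, plus strand): caggatTTTCCCGCgaagga
CDC25A (chr3:48188448-48188467, minus strand): attccgTTTGGCGCcaacta
GINS1 (chr20:25407672-25407691, plus strand): tgttcgGCGCCAAAgcgcgg
MCM6 (chr2:135876516-135876535, minus strand): ggtttgGCGCGAAAtctcca

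The sites of CDT1, GINS2, PCNA, TYMS and CLSPN all read GCGGGAAA along the gene. The letters were present in 10 of 22 higher genes with a promoter, in 7 of 10 lower genes and in 7 of 11 genes that did not pass the test. They therefore occur on both sides of the comparison, in genes as far apart as MCM7 and UHRF1. CCAAT, the letters of the NF-Y box, was found in 26 of 43 genes (60.5%, against 43.3% of tested genes with a promoter and 34.6% of all windows). GGGCGG, the SP1 box, was found in 35 (81.4%, against 78.2% of tested genes and 45.0% of windows). The CHR letters TTTGAA or TTCGAA, an element of promoters active in G2 and mitosis, were found in 3 (6.98%, against 15.3% of tested genes and 16.4% of windows). Matches to the E2F letters can overlap each other on opposite strands, as in MCM2 and MCM6, and can overlap the SP1 letters where both hold GCGG.

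**Figure D1:**
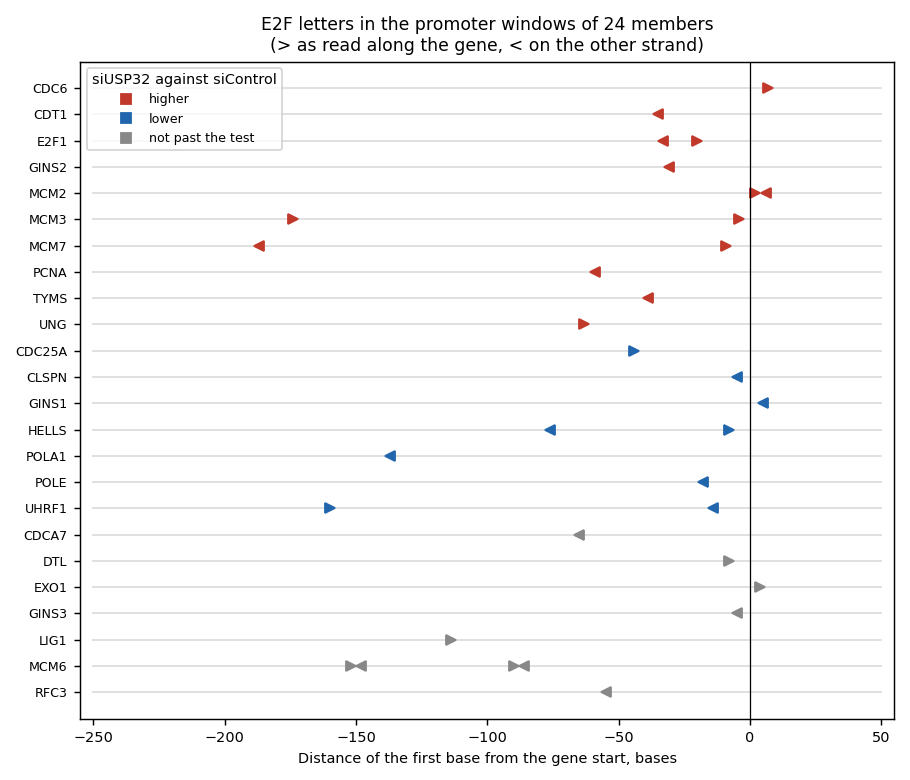
Distance in bases from the gene start, as given by the promoter entry (x axis), of each match to the E2F letters in the promoter windows of 24 genes (y axis). Arrowheads give the strand and colours give the call in siUSP32 against siControl. Red, blue and grey genes all have matches close to the start.

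Replication genes moved in both directions after USP32 depletion, mostly by small amounts. Of the 50 genes, 22 were higher in siUSP32 libraries, 13 were lower and 15 did not pass the test, which was limma's on log2(FPKM + 1) with a call at a Benjamini-Hochberg adjusted p under 0.05 over all genes. Over all 12003 genes tested, 33.3% were higher and 41.3% were lower, and 74.6% were called in either direction, so most genes of any kind differed between these libraries. The counts by role below stand beside these shares, under which calls in both directions are common in any group of genes. The median log2 difference was 0.13 over the 50 genes and -0.0627 over all genes. The siUSP32 libraries lay wholly above the siControl libraries for 24 genes and wholly below for 13, and the groups overlapped for 13, while over all genes the shares above and below were 34.6% and 43.2%. The exact 2-sided permutation test gave 0.1 for each gene without overlap, and 3 libraries against 3 allow no smaller p. Log2 differences ranged between -2.49 and 0.90 and were under 0.5 in size for 39 of the 50 genes. A difference of at least 1 was reached by 2 genes, the G1 cyclin gene CCND1 and the cyclin E gene CCNE2, both lower, against 10.8% of all genes lower and 1.95% higher by that much with a call. In bulk libraries, fewer cells in a phase of the cycle and less RNA per cell cannot be told apart.

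**Figure D2:**
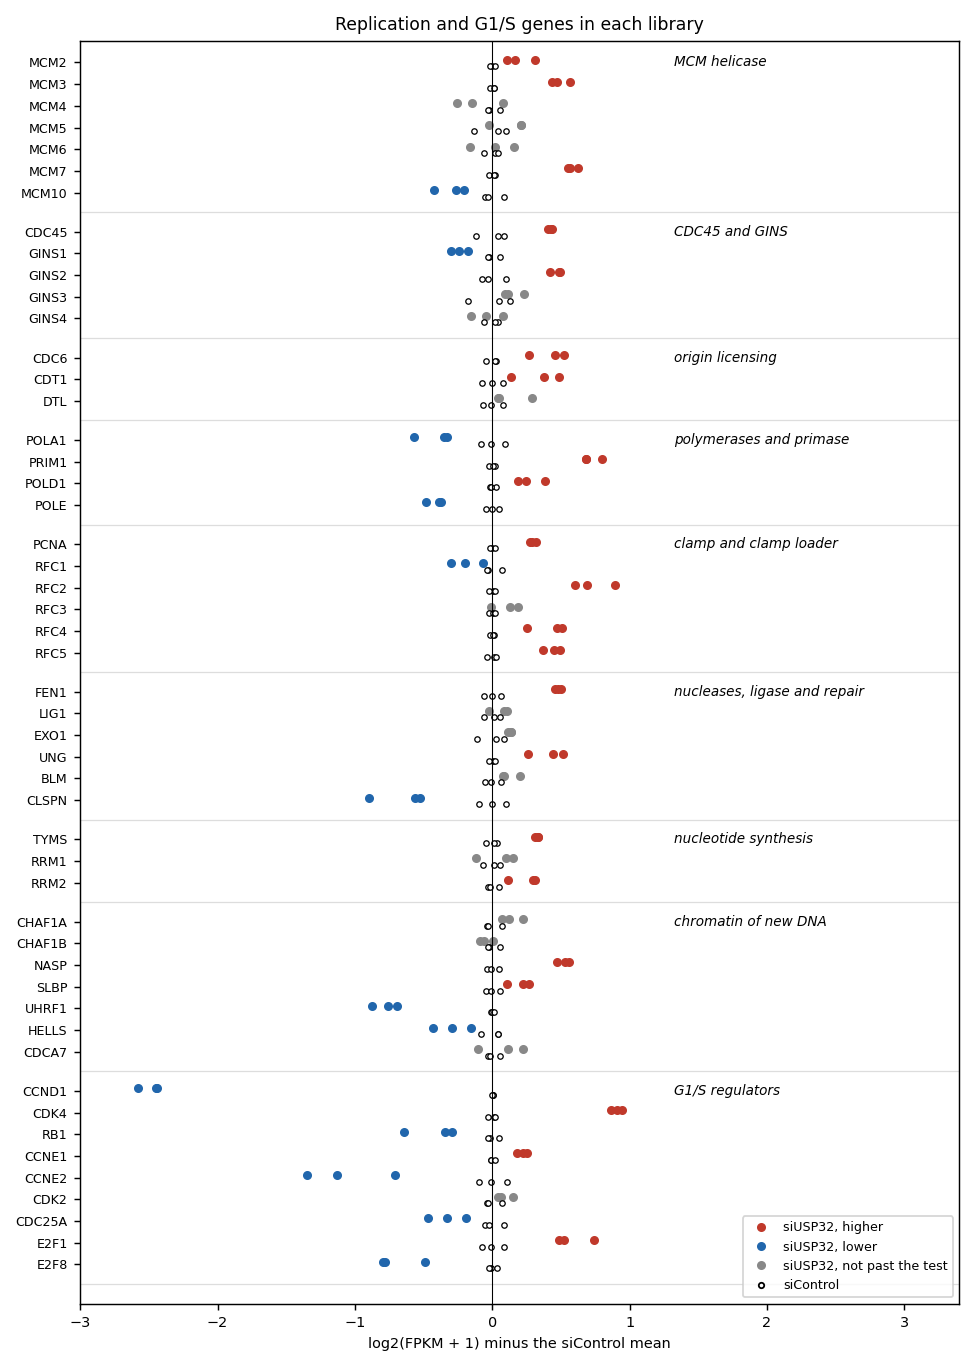
Each library's log2(FPKM + 1) minus the siControl mean (x axis) for the 50 genes (y axis), grouped by role, with siUSP32 libraries as filled points and siControl libraries as open points. Most points lie within 0.5 of 0, and CCND1 stands apart at -2.49.

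The calls depended on how libraries were put on a common scale. With each library rescaled to the same sum (TPM), 6 genes were higher and 24 lower, against 14.4% and 62.2% of all genes, and the median over all genes was shifted by -0.318. With quantile normalization 29 were higher and 6 lower, against 43.8% and 30% of all genes, with a shift of 0.164. Relative to the median of all genes in the same scaling, the median of the 50 genes was 0.19 as deposited, 0.18 with TPM, 0.18 after quantile normalization and 0.2 after median-ratio scaling. The direction of many small differences below therefore depends on the scaling, while the median relative to other genes moved little between these scalings. It was 0.09 at a minimum mean of 5 FPKM. MCM7, PRIM1, RFC2, NASP, CDK4 and E2F1 were called higher, and CLSPN, UHRF1, CCND1, CCNE2 and E2F8 lower, as deposited and in every alternative that tested them apart from a minimum difference of 1 (6 and 5 genes, against 12.5% and 21.2% of all genes). CCNE2 and E2F8 were not tested at a minimum mean of 5 FPKM. TPM ended the other calls in the higher direction, and called CCNE1 lower (-0.14). Quantile normalization ended the calls of the lower genes MCM10, GINS1, POLA1, POLE, RFC1, HELLS and CDC25A and of the higher genes PCNA, RRM2, SLBP and CCNE1.

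**Figure D3:**
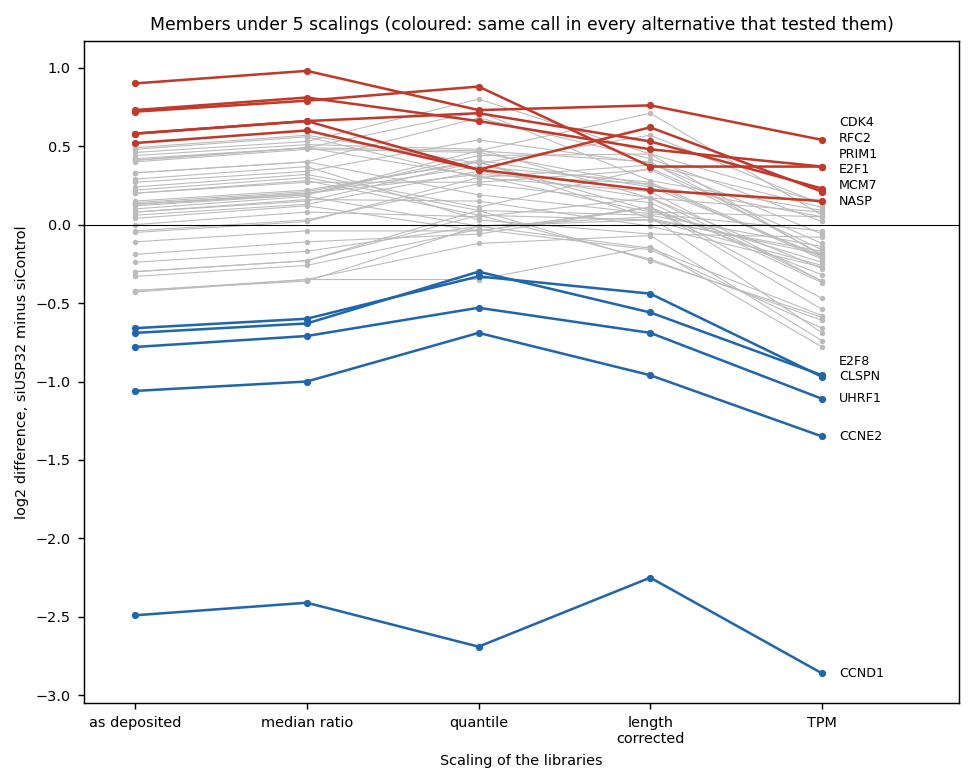
Log2 difference, siUSP32 minus siControl (y axis), of the 50 genes under 5 scalings of the libraries (x axis), 1 line per gene. Coloured lines are the 6 higher and 5 lower genes with the same call in every alternative that tested them, and the grey lines move below 0 with TPM in many cases.

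The G1/S regulators held the largest changes in the set, with 3 higher, 5 lower and 1 not called, and a median log2 difference of -0.33. The shares over all genes were 33.3% higher and 41.3% lower. CCND1 encodes cyclin D1, the G1 cyclin that activates CDK4 and CDK6 (Entrez 595, chromosome 11, 69641087 to 69654474, plus strand of GRCh38). It had 42.63, 38.56 and 42.47 FPKM in siUSP32 libraries, against 236.1, 236.19 and 234.92 FPKM in siControl libraries. The groups lay far apart, with siUSP32 libraries 5.72-fold lower in the mean (log2 difference -2.49 ± 0.05, SE, limma adjusted p = 1.98e-09). CCND1 was the most abundant of the 50 transcripts in siControl libraries and ranked 15 in siUSP32 libraries. Its exons overlap those of LTO1 on the other strand, so reads may be shared. LTO1 was at 12.6 ± 1.04 FPKM in siUSP32 and 11.8 ± 0.87 FPKM in siControl libraries. CDK4, the kinase that cyclin D1 activates (Entrez 1019, chromosome 12, 57747727 to 57756013, minus strand), moved the other way. Its level was 95.88, 101.54 and 98.93 FPKM in siUSP32 libraries and 52.66, 53.12 and 51.21 FPKM in siControl libraries. It was 1.89-fold higher with no overlap (log2 difference 0.90 ± 0.05, limma adjusted p = 2.33e-07), the largest rise in the set, and its transcript overlaps that of TSPAN31 on the other strand and has the pseudogene CDK4P1, so shared reads make the value uncertain. TSPAN31 itself was lower, at 9.31 ± 0.705 FPKM in siUSP32 and 14.8 ± 1.21 FPKM in siControl libraries (SD, n = 3 each).

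The RNA of CDK4 exceeded that of CCND1 in siUSP32 libraries, and that of CCND1 exceeded that of CDK4 in siControl libraries. CCND1 over CDK4, both per length, was 0.445, 0.38 and 0.429 in siUSP32 libraries and 4.48, 4.45 and 4.59 in siControl libraries, a ratio that multiplying a library by a factor cannot alter. CCND3, which encodes cyclin D3, was higher (71.5 ± 4.73 FPKM in siUSP32 and 47.4 ± 1.54 FPKM in siControl libraries, log2 difference 0.58), and CCND2 was under 1 FPKM in all 6 libraries. CCND1 made up 36.5% ± 2.74 of the summed FPKM of the 3 D cyclins in siUSP32 libraries and 83.1% ± 0.444 in siControl libraries (SD, n = 3 each). The sum itself was 113 ± 2.57 FPKM in siUSP32 and 284 ± 1.69 FPKM in siControl libraries. CDK6, the other partner kinase, was lower (12.4 ± 0.824 FPKM in siUSP32, 17.8 ± 0.484 FPKM in siControl, log2 difference -0.48), but 0.10 and without a call after correction for transcript length. CDK4 and CDK6 together came to 111 ± 2.48 FPKM in siUSP32 and 70.1 ± 0.607 FPKM in siControl libraries.

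RB1, the brake on E2F factors that these kinases release, had 19.51, 15.69 and 20.3 FPKM in siUSP32 libraries and 24.76, 26.01 and 24.45 FPKM in siControl libraries. The groups did not overlap (log2 difference -0.43 ± 0.09, limma adjusted p = 0.00205), and the call was lost after length correction (-0.14). E2F1, an activating E2F (Entrez 1869, chromosome 20, 33675683 to 33686404, minus strand), had 21.04, 24.65 and 20.44 FPKM in siUSP32 and 13.54, 15.27 and 14.21 FPKM in siControl libraries. It was 1.54-fold higher with no overlap (log2 difference 0.58 ± 0.08, limma adjusted p = 0.000142). E2F8, an atypical E2F that represses E2F targets (Entrez 79733, chromosome 11, 19224063 to 19241620, minus strand), had 1.8, 1.77 and 2.42 FPKM in siUSP32 and 3.92, 3.79 and 3.74 FPKM in siControl libraries. All siUSP32 values lay below all siControl values (log2 difference -0.69 ± 0.09, limma adjusted p = 0.000116), so E2F1 and E2F8 moved in opposite directions. The sum of E2F7 and E2F8 differed less, at 6.7 ± 0.878 FPKM in siUSP32 and 8.65 ± 0.105 FPKM in siControl libraries, without overlap. E2F1 over E2F8 was 11.4 ± 2.76 in siUSP32 and 3.76 ± 0.289 in siControl libraries (SD, n = 3 each).

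The other activating E2F genes did not follow E2F1. E2F2 was at 0.987 ± 0.146 FPKM in siUSP32 and 2.66 ± 0.202 FPKM in siControl libraries (log2 difference -0.88), and E2F3 was at 8.55 ± 1.16 FPKM in siUSP32 and 16.6 ± 0.508 FPKM in siControl libraries (log2 difference -0.89). Both were called lower in every alternative that tested them, apart from a minimum difference of 1. The sum of E2F1, E2F2 and E2F3 was 30.7, 33.1 and 30.9 FPKM in siUSP32 and 33.6, 34.2 and 33.0 FPKM in siControl libraries, and the groups overlapped. E2F1 made up 69.7% ± 4.39 of that sum in siUSP32 libraries and 42.7% ± 2.17 in siControl libraries.

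The pair of E cyclin genes, which encode the activators of CDK2, moved apart. CCNE1 had 63.92, 62.61 and 60.61 FPKM in siUSP32 and 52.88, 53.08 and 54.18 FPKM in siControl libraries, a small difference without overlap (log2 difference 0.22 ± 0.05, limma adjusted p = 0.00202). With TPM it turned to -0.14 and was called lower. CCNE2 (Entrez 9134, chromosome 8, minus strand) had 2.24, 1.78 and 3.34 FPKM in siUSP32 and 6.05, 5.61 and 6.64 FPKM in siControl libraries. It was 2.49-fold lower with no overlap (log2 difference -1.06 ± 0.15, limma adjusted p = 0.000148). Its exons overlap those of INTS8 on the other strand, so shared reads make the value of CCNE2 uncertain. INTS8 was at 12.2 ± 1.18 FPKM in siUSP32 and 14.9 ± 0.11 FPKM in siControl libraries. Since CCNE2 is the minor cyclin E here, with 3.79% ± 1.28 of the summed FPKM of both in siUSP32 and 10.2% ± 0.68 in siControl libraries, the sum was 64.8 ± 1.17 FPKM in siUSP32 and 59.5 ± 1.17 FPKM in siControl libraries. CDK2 itself was at 23.9 ± 1.04 FPKM in siUSP32 and 22.5 ± 1.04 FPKM in siControl libraries and was not called (log2 difference 0.08, limma adjusted p = 0.219, and -0.27 with TPM). CDC25A, the phosphatase that activates CDK2, was lower, at 6.57 ± 0.711 FPKM in siUSP32 and 8.51 ± 0.478 FPKM in siControl libraries (log2 difference -0.33, limma adjusted p = 0.00527), a call lost after quantile normalization (-0.03) and after length correction (-0.16).

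**Figure D4:**
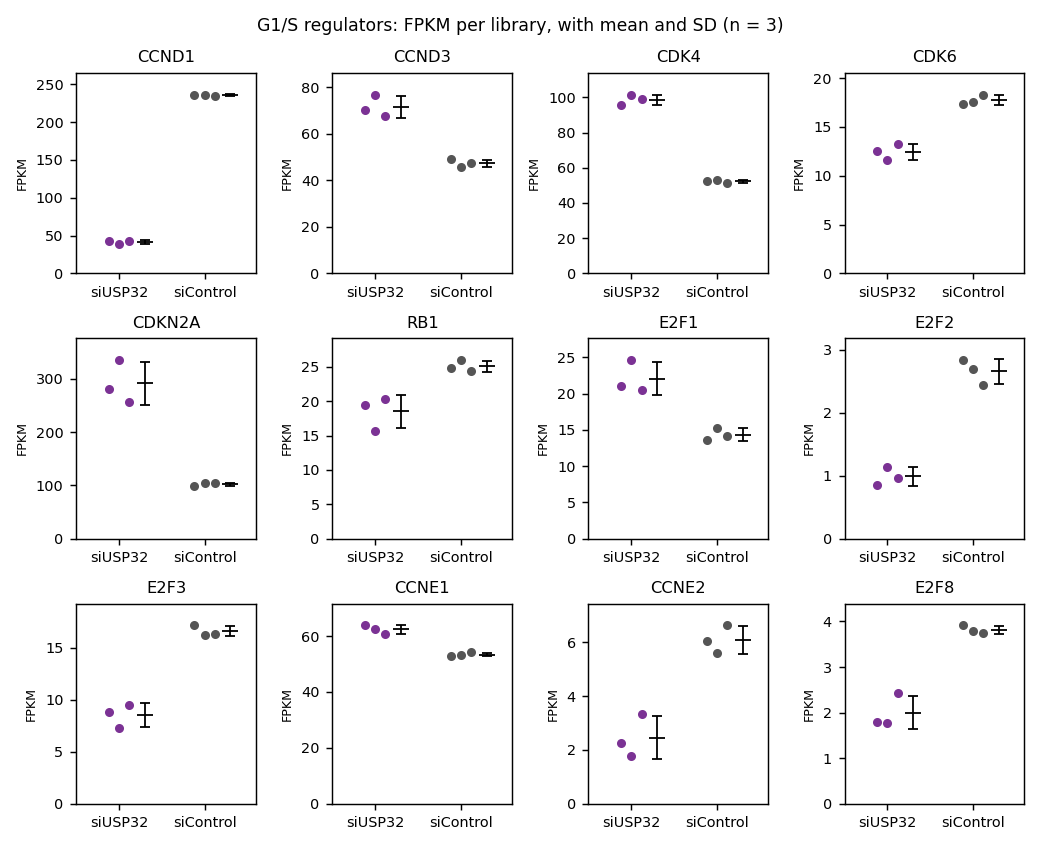
FPKM (y axis, from 0) of 12 G1/S regulators in each siUSP32 and siControl library, with the mean and SD beside the points (n = 3). CCND1, E2F2, E2F3, CCNE2, E2F8, CDK6 and RB1 lie lower in siUSP32 libraries, and CDK4, CDKN2A, E2F1, CCND3 and CCNE1 lie higher. The calls of CDK6, RB1 and CCNE1 were lost after length correction.

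The genes of origin licensing were higher or did not pass the test. CDC6, the loader ATPase, had 31.23, 27.28 and 32.69 FPKM in siUSP32 and 22.95, 22.78 and 21.82 FPKM in siControl libraries (log2 difference 0.41 ± 0.07, limma adjusted p = 0.00059). CDT1, its partner in loading the MCM ring, had 5.85, 6.39 and 4.78 FPKM in siUSP32 and 4.26, 4.56 and 4.01 FPKM in siControl libraries (log2 difference 0.33 ± 0.10, limma adjusted p = 0.0119). Neither gene's groups overlapped, and both calls were lost with TPM (0.06 and 0.02), and that of CDT1 also with array weights (0.24). DTL, the ligase subunit that has CDT1 degraded in S phase, was at 5.6 ± 0.658 FPKM in siUSP32 and 5.03 ± 0.301 FPKM in siControl libraries (log2 difference 0.13, limma adjusted p = 0.207), and was called higher after length correction (0.40). GMNN, the inhibitor of CDT1, was also called higher as deposited, with its call lost with TPM (0.11) and after length correction (0.09). CDT1 over GMNN was 0.098 ± 0.0169 in siUSP32 and 0.103 ± 0.00759 in siControl libraries, with overlap.

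Among the MCM genes, 3 were higher, 1 was lower and 3 did not pass the test, against 33.3% higher and 41.3% lower over all genes. The products of MCM2 to MCM7 work in equal numbers in 1 ring. MCM7 (Entrez 4176, chromosome 7, 100092728 to 100101940, minus strand) had 144.2, 151.84 and 145.51 FPKM in siUSP32 and 96.3, 99.19 and 98.69 FPKM in siControl libraries, 1.5-fold higher with no overlap (log2 difference 0.58 ± 0.05, limma adjusted p = 3.65e-06). MCM3 had 54.94, 56.3 and 60.26 FPKM in siUSP32 and 40.69, 39.85 and 40.67 FPKM in siControl libraries (log2 difference 0.49 ± 0.05, limma adjusted p = 2.59e-05). Both were higher in each siUSP32 library, and the call of MCM3 was lost with TPM (0.13). MCM2 had 23.38, 22.45 and 25.99 FPKM in siUSP32 and 20.71, 21.0 and 20.5 FPKM in siControl libraries (log2 difference 0.20 ± 0.06, limma adjusted p = 0.0193). That small rise turned to -0.16 with TPM, and it lost its call without siControl replicate 1 (adjusted p = 0.0584) and without siControl replicate 3 (adjusted p = 0.065).

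MCM4, MCM5 and MCM6 were not called, with log2 differences of -0.11, 0.13 and 0.00, and their groups overlapped. MCM4 was called lower without siUSP32 replicate 3 (-0.21, adjusted p = 0.0152) and with TPM (-0.47). MCM5 and MCM6 were called higher after length correction (0.27 and 0.17), and MCM6 was called lower with TPM (-0.36). Summed over MCM2 to MCM7, FPKM was 289 ± 9.16 in siUSP32 and 220 ± 2.01 in siControl libraries, with MCM7 as the largest part. The highest of the 6 was 13.3 ± 1.17 times the lowest in siUSP32 and 9.78 ± 1.02 times in siControl libraries. MCM10, which recruits polymerase alpha and is not part of the ring, had 4.74, 4.14 and 4.96 FPKM in siUSP32 and 5.63, 5.75 and 6.29 FPKM in siControl libraries. It was lower without overlap (log2 difference -0.30 ± 0.08, limma adjusted p = 0.00733), but at 0.06 after quantile normalization.

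Products of CDC45 and the GINS genes bind the MCM ring to form the active helicase. Of these genes 2 were higher, 1 was lower and 2 were not called, against 33.3% higher and 41.3% lower over all genes. CDC45 had 9.03, 8.86 and 9.08 FPKM in siUSP32 and 6.66, 6.89 and 5.86 FPKM in siControl libraries (log2 difference 0.42 ± 0.07, limma adjusted p = 0.000507). GINS2 had 7.22, 7.62 and 7.66 FPKM in siUSP32 and 5.61, 5.04 and 4.85 FPKM in siControl libraries (log2 difference 0.46 ± 0.07, limma adjusted p = 0.000266). Both rose without overlap between the groups, and both calls were lost with TPM (0.09 and 0.14). GINS1 was lower, with 9.96, 9.54 and 10.47 FPKM in siUSP32 and 12.47, 11.77 and 11.7 FPKM in siControl libraries (log2 difference -0.24 ± 0.06, limma adjusted p = 0.00612), a call lost after quantile normalization (-0.01) and after a correction for GC content (-0.05). GINS3 and GINS4 were not called (log2 differences 0.15 and -0.04). GINS4 was called lower with TPM (-0.37) but higher under quantile normalization (0.26). The sum of the 4 GINS genes was 35.4 ± 1.82 FPKM in siUSP32 and 34.3 ± 0.414 FPKM in siControl libraries, with overlap.

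Polymerase and primase genes split evenly, 2 higher and 2 lower, against 33.3% higher and 41.3% lower over all genes. PRIM1, the catalytic primase subunit that makes the RNA primers (Entrez 5557, chromosome 12, 56731596 to 56752373, minus strand), had 21.52, 19.75 and 19.75 FPKM in siUSP32 and 11.72, 12.15 and 12.01 FPKM in siControl libraries. It was 1.7-fold higher with no overlap (log2 difference 0.72 ± 0.06, limma adjusted p = 4.57e-06). Its exons overlap those of NACA on the same strand, a gene at 1940 ± 115 FPKM in siUSP32 and 1410 ± 22.1 FPKM in siControl libraries, so the value of PRIM1 is uncertain. POLA1, the catalytic subunit of the polymerase that primase works with, had 6.75, 5.65 and 6.85 FPKM in siUSP32 and 8.82, 8.31 and 9.52 FPKM in siControl libraries (log2 difference -0.42 ± 0.08, limma adjusted p = 0.00163). The enzymes of 1 complex thus moved in opposite directions, with PRIM1 over POLA1 at 3.19 ± 0.306 in siUSP32 and 1.35 ± 0.102 in siControl libraries, and POLA1 lost its call after length correction (-0.07).

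POLD1, the catalytic subunit of polymerase delta, had 9.26, 10.73 and 9.69 FPKM in siUSP32 and 8.19, 7.89 and 7.97 FPKM in siControl libraries (log2 difference 0.27 ± 0.07, limma adjusted p = 0.00565). POLE, that of polymerase epsilon, had 2.29, 2.54 and 2.51 FPKM in siUSP32 and 3.59, 3.75 and 3.46 FPKM in siControl libraries (log2 difference -0.42 ± 0.07, limma adjusted p = 0.000453). Neither gene's groups overlapped, but POLD1 was at -0.06 with TPM, and POLE, the longest transcript of the set with 7840 bases, at 0.05 after length correction.

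The sliding clamp gene PCNA had 165.68, 161.09 and 162.34 FPKM in siUSP32 and 132.72, 134.61 and 131.59 FPKM in siControl libraries, 1.23-fold higher with no overlap (log2 difference 0.29 ± 0.04, limma adjusted p = 0.000222). PCNA was the most abundant of the 50 transcripts in siUSP32 libraries. The difference was -0.08 with TPM and -0.06 after length correction, and the pseudogenes PCNAP1, PCNAP3 and PCNAP4 may share its reads. Of the 5 subunits of the clamp loader, RFC2, RFC4 and RFC5 were higher, RFC1 was lower and RFC3 did not pass the test. RFC2 (Entrez 5982, chromosome 7, 74231499 to 74254458, minus strand) had 50.03, 61.47 and 53.16 FPKM in siUSP32 and 32.73, 32.06 and 32.96 FPKM in siControl libraries (log2 difference 0.73 ± 0.07, limma adjusted p = 1.95e-05). It rose 1.68-fold, and by the log2 difference this was the largest rise outside the G1/S regulators.

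RFC5 had 29.6, 31.35 and 32.25 FPKM in siUSP32 and 22.09, 22.84 and 23.13 FPKM in siControl libraries (log2 difference 0.44 ± 0.05, limma adjusted p = 7.37e-05), and RFC4 was at 56.0 ± 5.25 FPKM in siUSP32 and 41.7 ± 0.414 FPKM in siControl libraries (log2 difference 0.41, limma adjusted p = 0.000517). Both lost their calls with TPM (0.08 and 0.05), and RFC4 also after length correction (0.08). RFC1, the large subunit that sets this loader apart from its relatives, had 15.08, 13.95 and 16.59 FPKM in siUSP32 and 17.04, 16.91 and 18.39 FPKM in siControl libraries (log2 difference -0.19 ± 0.07, limma adjusted p = 0.0393). Its call lay close to the threshold, was lost in each fit that left out a library other than siUSP32 replicate 3, with adjusted p between 0.0639 and 0.147, and the difference was 0.11 after length correction. RFC3 was at 54.3 ± 3.8 FPKM in siUSP32 and 50.4 ± 0.838 FPKM in siControl libraries (log2 difference 0.10, limma adjusted p = 0.137), was called higher without siUSP32 replicate 2 (0.16, adjusted p = 0.00369) and lower with TPM (-0.26).

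Among the genes for flap removal, ligation and repair at the fork, FEN1 and UNG rose, CLSPN fell and LIG1, EXO1 and BLM did not pass the test. FEN1, the flap endonuclease that trims Okazaki fragments, had 89.96, 87.62 and 88.88 FPKM in siUSP32 and 63.4, 60.83 and 66.3 FPKM in siControl libraries (log2 difference 0.48 ± 0.05, limma adjusted p = 2.21e-05). UNG, which removes uracil from DNA, had 30.77, 27.1 and 32.39 FPKM in siUSP32 and 22.47, 22.77 and 22.04 FPKM in siControl libraries (log2 difference 0.40 ± 0.07, limma adjusted p = 0.000574). Neither overlapped between groups, both calls were lost with TPM (0.11 and 0.05), and the exons of FEN1 overlap those of FADS2 on the same strand, which makes its value uncertain. CLSPN encodes claspin, a fork protein needed to activate the checkpoint kinase CHEK1 (Entrez 63967, chromosome 1, 35720218 to 35769967, minus strand). It had 4.49, 3.36 and 4.65 FPKM in siUSP32 and 7.11, 6.6 and 7.7 FPKM in siControl libraries, 1.71-fold lower without overlap (log2 difference -0.66 ± 0.11, limma adjusted p = 0.00039).

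LIG1, the ligase that seals Okazaki fragments, had a log2 difference of 0.06 (limma adjusted p = 0.454), EXO1, an exonuclease of mismatch repair, of 0.13 (adjusted p = 0.106), and BLM, the helicase mutated in Bloom syndrome, of 0.12 (adjusted p = 0.139). The siUSP32 libraries of EXO1 and BLM lay wholly above the siControl libraries by a small margin. With TPM, LIG1 and EXO1 were called lower (-0.28 and -0.22), and after length correction EXO1 and BLM were called higher (0.26 and 0.45).

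In nucleotide synthesis, TYMS, which makes thymidylate, had 67.11, 68.0 and 68.16 FPKM in siUSP32 and 55.01, 52.22 and 54.25 FPKM in siControl libraries (log2 difference 0.33 ± 0.05, limma adjusted p = 0.000165). RRM2, the small subunit of ribonucleotide reductase and the one that varies with the cell cycle, had 64.85, 57.18 and 65.73 FPKM in siUSP32 and 51.45, 54.65 and 52.0 FPKM in siControl libraries (log2 difference 0.24 ± 0.06, limma adjusted p = 0.00683). Both groups of values stood apart, and both differences were below 0 with TPM (-0.04 and -0.12). RRM1, the large subunit, was at 44.2 ± 4.32 FPKM in siUSP32 and 42.7 ± 1.85 FPKM in siControl libraries and was not called (log2 difference 0.04, limma adjusted p = 0.601), though it was called lower with TPM (-0.32) and higher without siUSP32 replicate 2 (0.13, adjusted p = 0.0317). TYMS and RRM2 both have processed pseudogenes, so part of their reads may be shared.

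The genes for the chromatin of newly made DNA held the largest fall outside the G1/S regulators. UHRF1, which brings the methyltransferase DNMT1 to newly copied DNA (Entrez 29128, chromosome 19, 4903080 to 4962154, plus strand), had 7.24, 6.61 and 7.65 FPKM in siUSP32 and 12.9, 12.98 and 13.07 FPKM in siControl libraries. It was 1.81-fold lower with no overlap (log2 difference -0.78 ± 0.07, limma adjusted p = 6.2e-06). HELLS, a chromatin remodeller also needed for DNA methylation, had 3.66, 3.24 and 4.14 FPKM in siUSP32 and 4.89, 4.9 and 4.4 FPKM in siControl libraries (log2 difference -0.30 ± 0.09, limma adjusted p = 0.0119), lower without overlap but at 0.09 after quantile normalization. Its call was also lost after a correction for GC content (-0.04). CDCA7, the partner of HELLS, was at 6.72 ± 0.877 FPKM in siUSP32 and 6.28 ± 0.233 FPKM in siControl libraries and was not called (log2 difference 0.08, limma adjusted p = 0.447), though it was called higher without siUSP32 replicate 2 (0.17, adjusted p = 0.0292). DNMT1 itself, which is not among the 50 genes, was at 31.7 ± 2.43 FPKM in siUSP32 and 37.7 ± 1.29 FPKM in siControl libraries (log2 difference -0.25, limma adjusted p = 0.00718), and at 0.10 without a call after length correction.

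NASP, a chaperone of histones H3 and H4 (Entrez 4678, chromosome 1, 45583846 to 45618904, plus strand), had 87.53, 85.81 and 82.6 FPKM in siUSP32 and 61.18, 57.62 and 58.97 FPKM in siControl libraries, 1.44-fold higher with no overlap (log2 difference 0.52 ± 0.05, limma adjusted p = 1.21e-05). SLBP, which binds the stem loop of histone mRNAs, had 66.93, 59.99 and 65.15 FPKM in siUSP32 and 57.88, 53.81 and 55.04 FPKM in siControl libraries (log2 difference 0.20 ± 0.06, limma adjusted p = 0.0109). Its groups did not overlap, its difference was -0.17 with TPM, and its call was lost after quantile normalization (0.06) and after length correction (0.03). It was also lost without siControl replicate 2 (adjusted p = 0.0529) and without siUSP32 replicate 1 (adjusted p = 0.0517). CHAF1A and CHAF1B, subunits of the chromatin assembly factor that places histones behind the fork, were not called (log2 differences 0.14 and -0.05). Both were called higher after length correction (0.24 and 0.21) and lower with TPM (-0.20 and -0.36).

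Reads may be shared for some of these genes, since the strand of counting and the handling of reads with several matches are not known. Exons of 16 of the 50 genes overlap a protein-coding neighbour in GENCODE, among them MCM7 (AP4M1), RFC4 (EIF4A2), RFC5 (WSB2) and GINS2 (GSE1), and 8 have a named pseudogene, namely PCNA, RFC3, RFC5, FEN1, UNG, TYMS, RRM2 and CDK4, so their values are uncertain. AP4M1, on the strand opposite to MCM7, was at 5.81 ± 0.531 FPKM in siUSP32 and 5.67 ± 0.115 FPKM in siControl libraries, far below MCM7.

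Library differences ran through the set. Within the siUSP32 group, replicate 2 was the lowest library for 30 of the 50 genes and replicate 3 the highest for 31. The median SD of log2(FPKM + 1) over the 50 genes was 0.0997 among siUSP32 and 0.0474 among siControl libraries. The part of this in the results was not tested beyond the fits that left out a library, in which between 21 and 25 of the 50 genes were higher and between 12 and 14 lower.

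Longer transcripts tended to be lower in siUSP32 libraries. Over the 50 genes, Spearman's rho between transcript length and the log2 difference was -0.64, against -0.52 over 11962 tested genes with a length. These correlations run across genes measured in the same 6 libraries, and genes are not independent replicates. The 22 higher genes had a median transcript of 2083 bases, the 13 lower genes of 3783 bases, and the 15 that did not pass the test of 3473 bases, against 3050 bases over all tested genes. Every lower gene had a transcript of at least 3099 bases. After a correction for length in each library, rho was -0.1 over the 50 genes, and 24 were higher and 8 lower, against 34.6% and 35.4% of all genes. With a least-squares curve, chosen after seeing the data, 32 were higher and 5 lower, against 44.3% and 28.6% of all genes. The calls of RFC1, RFC4, PCNA, POLA1, POLE, TYMS, SLBP, RB1, CCNE1 and CDC25A were lost with the first of these corrections. CCND1 was then at -2.25, CDK4 at 0.76, CCNE2 at -0.96, UHRF1 at -0.69, MCM7 at 0.62 and E2F1 at 0.53, each with its call.

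**Figure D5:**
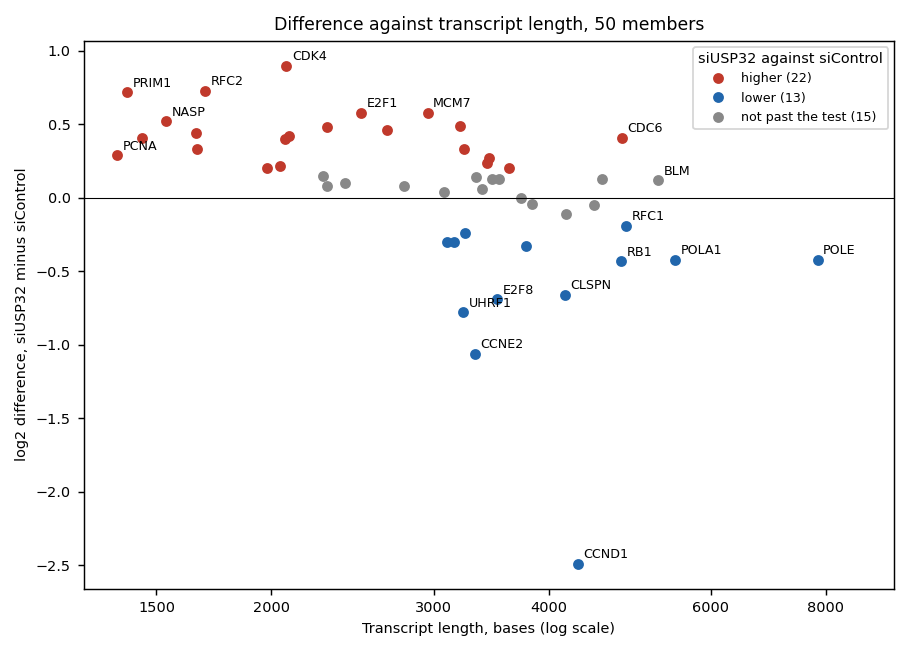
Log2 difference, siUSP32 minus siControl (y axis), against transcript length in bases (x axis, log scale) for the 50 genes, coloured by call. Higher genes lie mostly to the left of lower genes (medians of 2083 and 3783 bases), and POLE lies at 7840 bases.

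The wider pathway was read out through 88 further genes in 10 groups, of which 86 passed the filter. CCND2 and CCNA1 did not. Of the 86, 33 were higher in siUSP32 libraries, 24 were lower and 29 were not called, with a median log2 difference of 0.12. Over all genes tested, 33.3% were higher and 41.3% lower. With TPM 15 of the 86 were higher and 47 lower with a median of -0.24, against 14.4% and 62.2% of all genes. The counts by role that follow stand beside the same shares, with 74.6% of all genes called in either direction as deposited. Among the CDK inhibitors and their ligase, 5 of 9 were higher and 4 lower. CDKN2A, whose products hold back CDK4 and MDM2, showed the largest difference of the 86 genes (log2 difference 1.49 ± 0.09, limma adjusted p = 5.46e-07). Its neighbour CDKN2B was at 5.81 ± 0.505 FPKM in siUSP32 and 3.02 ± 0.185 FPKM in siControl libraries (0.76), and CDKN1A, the inhibitor p21, at 113 ± 6.58 FPKM in siUSP32 and 66.4 ± 2.88 FPKM in siControl libraries (0.76). SKP2 and CKS1B, which together target the inhibitor p27 for degradation, were also higher (log2 differences 0.78 and 0.85), while CDKN1B, which encodes p27, was lower (-0.27, and -0.03 after quantile normalization). CDKN1C, which encodes p57, was at 11.9 ± 0.521 FPKM in siUSP32 and 24.8 ± 0.714 FPKM in siControl libraries (log2 difference -1.0). Inhibitors of cyclin-dependent kinases and factors that remove them thus both had members that rose.

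Of 14 genes of origin recognition and firing, 2 were higher and 3 lower. ORC6, a subunit of the origin recognition complex, was at 41.3 ± 0.786 FPKM in siUSP32 and 24.5 ± 0.676 FPKM in siControl libraries (log2 difference 0.73). CDC7, the kinase that fires licensed origins, was at 5.78 ± 0.238 FPKM in siUSP32 and 9.41 ± 0.0751 FPKM in siControl libraries (-0.62), while its activator DBF4 was not called (-0.01). TICRR, a further firing factor, was lower (-0.51, and -0.09 without a call after length correction). Subunits of 1 complex differed here too, since ORC2 was lower (-0.38, and -0.14 without a call after length correction), and ORC6 over ORC2 was 2.44 ± 0.428 in siUSP32 and 1.09 ± 0.0298 in siControl libraries.

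Of 8 other polymerase and primase subunits, 5 were higher and 1 was lower. POLD4, a small subunit of polymerase delta, was at 21.3 ± 3.85 FPKM in siUSP32 and 11.2 ± 0.605 FPKM in siControl libraries (log2 difference 0.86), and POLD2 was at 106 ± 7.69 FPKM in siUSP32 and 70.9 ± 1.68 FPKM in siControl libraries (log2 difference 0.57). POLD3 was the exception that fell (-0.40, and -0.10 without a call after quantile normalization). RNASEH2A and RNASEH2C, subunits of the nuclease that removes ribonucleotides from DNA, were higher (0.70 and 0.69), and TOP2A, the topoisomerase that untangles copied DNA, was lower (94.2 ± 12.8 FPKM in siUSP32 and 145 ± 5.54 FPKM in siControl libraries, -0.63). The difference of TOP2A was -0.26 after length correction, and its call was lost with the least-squares curve (-0.13, limma adjusted p = 0.093). RPA2 and RPA3, which coat single-stranded DNA, were higher (0.39 and 0.39), with calls lost with TPM (0.02 and 0.04).

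Among further nucleotide enzymes, TK1, DUT and DTYMK were higher, and DCK, RRM2B and SAMHD1 were lower. DUT was called lower with TPM (-0.20), and TK1 was not called there (0.08). SAMHD1, which breaks down deoxynucleotides, was at 7.91 ± 0.642 FPKM in siUSP32 and 16.2 ± 0.455 FPKM in siControl libraries (log2 difference -0.95), and DCK, a salvage kinase, was at 16.2 ± 1.24 FPKM in siUSP32 and 28.5 ± 1.68 FPKM in siControl libraries (log2 difference -0.78). In the S phase checkpoint, WEE1, the kinase that restrains CDK1 and CDK2, was lower (11.5 ± 2.16 FPKM in siUSP32 and 18.1 ± 0.188 FPKM in siControl libraries, -0.62), and CHEK1, the kinase that claspin serves, did not pass the test (0.12, limma adjusted p = 0.127). E2F4, a repressive E2F in resting cells, was higher (0.59), and the pocket protein genes RBL1 and RBL2 were lower as deposited (-0.48 and -0.35), without calls after length correction (-0.11 and -0.05). CDK7 and CCNH, which form the kinase that activates other cyclin-dependent kinases, were higher (log2 differences 0.74 and 0.55).

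Some called genes of the wider pathway depended on the scaling or on length. The histone chaperone gene ASF1A, the E2F partner TFDP2 and the checkpoint genes RAD9A and ATRIP were higher (log2 differences 0.42, 0.24, 0.35 and 0.20), and none of these 4 kept a call in the higher direction with TPM (0.06, -0.11, 0.02 and -0.11). ATAD5, which helps unload PCNA, MCM8, a relative of the MCM ring proteins, and ATR, the checkpoint kinase upstream of CHEK1, were lower (-0.44, -0.33 and -0.43). After length correction none of these 3 was called (-0.01, 0.13 and 0.05). DNA2, a nuclease and helicase for long flaps, was lower (-0.46), with its call lost after quantile normalization (-0.06). DTYMK, which makes the diphosphate of thymidine, was higher (0.52) and stayed called with TPM (0.15) and after length correction (0.12).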

How the data were processed

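FPKM tables, 1 per library, were deposited by the authors, per the file headers. The submitters' processing notes name GRCh38.p13 as the build. For the aligner, counting, annotation, strand and shared reads, the method is not given in the sources used here. FPKM values are not counts, so no count model was used, and read depth is unknown.

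Genes whose FPKM averaged 1 or more over the libraries (12003 of 17646) were compared as log2(FPKM + 1), which understates changes of low genes. The fit used R 4.3.3 and limma 3.58.1 with 2-sided tests, a trend of variance on level, no covariate and Benjamini-Hochberg adjustment over all genes at 0.05. The fit was checked on simulated data. No library was a copy of another, since pairs within a group shared at most 0.783% of values.

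Transcript lengths, overlaps and pseudogenes came from GENCODE 29 on GRCh38 through Entrez identifiers, with a length for 99.7% of tested genes. Each library was corrected for length, as an alternative, with a robust loess curve (span 0.5). Exons of 16 of the 50 genes overlap another protein-coding gene, and 8 have a named pseudogene. Sums and ratios over genes are of FPKM. Alternatives were 20 in number, 1 of them chosen after seeing the data.

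The 50 genes, the lists of 88 further genes and markers, and the tests were chosen with earlier results of these data known. Named genes were all 50, with values of every library for CCND1, CDK4, RB1, CCNE1, E2F1, PCNA, MCM2, RRM2 and up to 2 rises and 2 falls per role, and among the further genes the 2 rises and 2 falls per role with the smallest adjusted p. The library values of E2F8, and CCND2, CCND3, CDKN1A, CDKN2B, SKP2, ORC2, DBF4, CHEK1, RBL1, RBL2, TK1, DUT and RRM2B among the further genes, were chosen after their values were seen. The sums, shares and ratios over genes, among them the sum of E2F7 and E2F8, were not in the plan. They count as chosen after their values were seen. One of the further genes that the rule takes is not reported here.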

Additional observations from a re-analysis of the deposited data

How the results depend on the processing

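As deposited, 8957 of all genes were called, with 22 of the 50 genes higher and 13 lower (median log2 difference 0.13), and 33 of the 86 further genes higher and 24 lower (median 0.12). TPM gave 6 higher and 24 lower of the 50 (median -0.2) and 15 higher and 47 lower of the further genes (median -0.24), and turned the log2 difference, with a call as deposited or in the alternative, of MCM2 (-0.16), MCM6 (-0.36), POLD1 (-0.06), PCNA (-0.08), RFC3 (-0.26), LIG1 (-0.28), EXO1 (-0.22), TYMS (-0.04), RRM1 (-0.32), RRM2 (-0.12), CHAF1A (-0.2), SLBP (-0.17), CCNE1 (-0.14) and CDK2 (-0.27), and, with a call in neither, of MCM5 (-0.21), GINS3 (-0.19), DTL (-0.19), BLM (-0.20) and CDCA7 (-0.24). Quantile normalization gave 6 lower of the 50 (median 0.29) and 14 lower of the further genes, and turned MCM10 (0.06), GINS4 (0.26), CHAF1B (0.3) and HELLS (0.09), and, with a call in neither, RFC3 (-0.01) and RRM1 (-0.04). Median-ratio scaling moved the median of the 50 to 0.2, and a GC correction moved it to 0.21 and that of the further genes to 0.19. The GC correction gave 30 higher and 10 lower of the 50, against 39.7% and 38.7% of all genes. It ended the calls of MCM2 (0.15), GINS1 (-0.05), RFC1 (-0.0) and HELLS (-0.04). Length correction gave 8 lower of the 50, or 7 with the replicate block, and with or without the block it turned POLE (0.05), PCNA (-0.06), RFC1 (0.11) and CHAF1B (0.21), and, with a call in neither, MCM4 (0.11), GINS4 (0.14) and CDK2 (-0.01). Length correction by least squares, chosen after seeing the data, gave 5 lower of the 50 (median 0.27), 53 higher and 12 lower of the further genes (median 0.25), and turned MCM4 (0.26), GINS4 (0.28), POLA1 (0.07), POLE (0.17), PCNA (-0.01), RFC1 (0.25), CHAF1B (0.35) and RB1 (0.0). Beyond these corrections' construction, the cause was not tested. A minimum log2 difference of 1 called 1531 of all genes, 2 of the 50 (0 higher, 2 lower) and 1 of the further genes (1 higher, 0 lower).

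Leaving out each library in turn called 8279 to 9291 of all genes, 33 to 37 of the 50 (21 to 25 higher, 12 to 14 lower, median 0.1 to 0.16) and 51 to 66 of the further genes (29 to 42 higher, 22 to 26 lower, median 0.08 to 0.11). Calls over all genes were most numerous without siUSP32 replicate 2. In these fits MCM2, RFC1 and SLBP lost their calls at least once, CDCA7, MCM4, RFC3 and RRM1 gained one, and none of the 50 turned its direction with a call. Whether replicate numbers pair the samples is not known. Deviations of same-numbered libraries correlated at -0.0766, 0.0706 and 0.119, which cannot exclude a pairing with 3 libraries a group. With the number as a block 8995 of all genes were called and the 50 kept 22 higher and 13 lower. Dropping the filter on low values, a pseudocount of 0.1, fits without the trend or with array weights, and a minimum mean of 5 FPKM left each of these counts within 1.5 times, although at that minimum the median of the 50 relative to all genes was 0.09, against 0.19 as deposited. Unknown depth, and 3 libraries a group, limit the precision of the low genes such as E2F8, CCNE2 and POLE.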
